A study of Mus musculus with 84 samples.

Results

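The 21 libraries with the most Fos transcript were compared with the 21 with the least, out of 84 libraries of mouse ventrolateral striatum. The libraries were chosen by their measured Fos level in CPM, a gene's count scaled to the library's total gene count: all 84 were ranked by it, and the 42 at the ends of the ranking form the high-Fos and the low-Fos side. The other 42 libraries lie between the sides and were used for a second fit that the sides did not enter. Fos placed the libraries, so its difference between the sides is a description and carries no test. Its relation to line, sex, sheet set, animal number and marker scores, none of which the ranking used, was examined over all 84 libraries.

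All 84 mice were adult and untreated per the labels, and came from the SOT and NOT lines, which were bred for ethanol preference and ethanol withdrawal together and sampled at the S4 generation. The labels place 44 mice in a High Drinker group and 40 in a Low Drinker group, in both sexes, and give no alleles, housing, time of day or handling. Brains were frozen on dry ice after cervical dislocation and the tissue was later dissected by hand, so each library holds RNA of every cell type in the piece that was taken. In such bulk RNA, fewer cells of a type and less RNA per cell cannot be told apart.

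Fos encodes a subunit of the AP-1 transcription factor and is an immediate early gene: its transcription starts within minutes of calcium entry or growth factor signalling, from proteins already present, and its mRNA is short-lived. Neuronal firing raises Fos together with other AP-1, EGR and NR4A transcription factors and with effectors at the synapse such as Arc, while phosphatases and mRNA decay factors induced at the same time end the response. A later wave, which needs new protein, holds secreted peptides and growth factors such as Bdnf. In the striatum, dopamine and cortical glutamate act on medium spiny neurons to set the level of these genes.

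Fos ranged from 38.96 to 62.1 CPM on the high-Fos side, with a median of 47.7, and from 3.38 to 12.2 CPM on the low-Fos side, with a median of 8.60. The 42 libraries between them ran from 12.3 to 38.9 CPM. The ranking had no gap at either end: the last high-Fos library had 38.96 CPM and the next one 38.89 CPM, and the last low-Fos library had 12.24 CPM beside 12.31 CPM just outside. The high-Fos side held 6 High Drinker and 15 Low Drinker mice (7 females, 14 males), and the low-Fos side held 14 High Drinker and 7 Low Drinker mice (6 females, 15 males). Total gene counts overlapped widely, at 27561410 to 35941404 on the high-Fos side and 22190363 to 34789332 on the low-Fos side. Gm42418, a ribosomal RNA gene, held 10.2% of the total of the low-Fos library High Drinker 11.

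Fos followed the animal number in the sample titles. Every high-Fos mouse carried a higher number than every low-Fos mouse. Over the 84 libraries, Pearson's r between Fos CPM and animal number was 0.853 and Spearman's rho 0.851 (permutation p = 1e-05 for each, the smallest that 100000 resamples can give, and 1e-05 adjusted over 3 relations tested with Fos). Without the 2 animals farthest from the median number, r was 0.859. Each title also ends in a running number, and these fall into 3 runs, treated here as sample-sheet sets by inference from the numbering alone. Within set 1 (48 libraries) r was 0.79 and rho 0.822 (permutation p = 1e-05 for both), within set 2 (30 libraries) 0.545 and 0.513 (permutation p = 0.0017 and 0.0041), and in the 6 libraries of set 3 -0.042 and -0.543 (permutation p = 0.95 and 0.3). Within the High Drinker mice r was 0.807 and within the Low Drinker mice 0.88 (permutation p = 1e-05 for both). The high-Fos side held 6 libraries of set 1 and 15 of set 2, and the low-Fos side 17 of set 1 and 4 of set 3. What the animal numbers stand for (birth order, date of death or another order) is not given in the sources used here, and it cannot be told apart from the Fos sides.

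**Figure D1:**
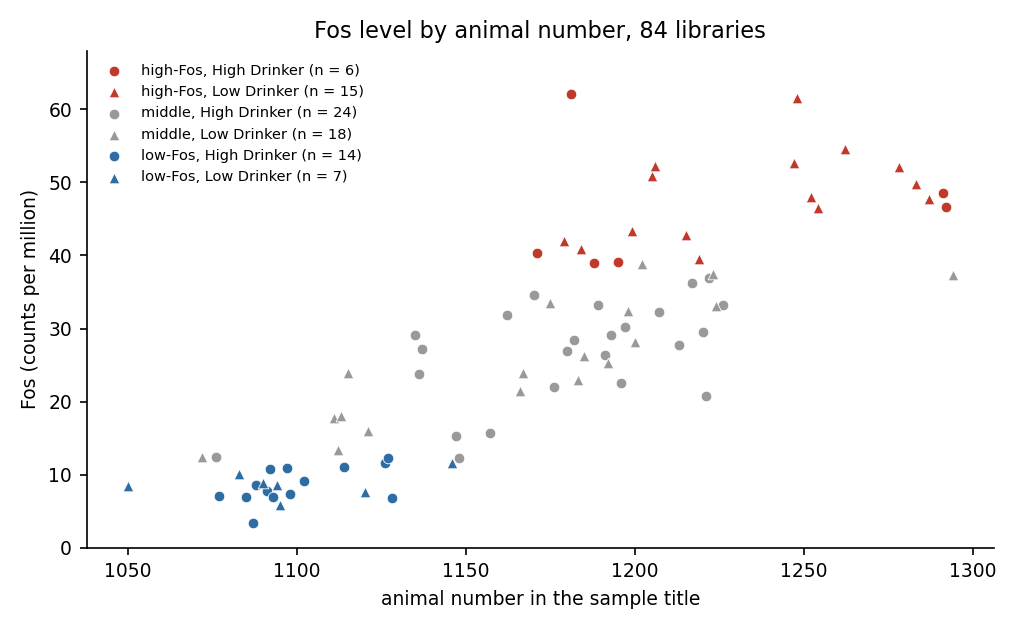
Fos in CPM (vertical axis) against the animal number in the sample title (horizontal axis), 1 point per library, with colour for the side and shape for the line group. All 21 high-Fos libraries stand to the right of all 21 low-Fos libraries, and the libraries between them bridge both ranges.

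Line and sex, which the ranking did not use, gave no difference in Fos that passed a test. The Fos level of the 44 High Drinker mice was 23.5 ± 13.6 CPM (mean ± SD) and that of the 40 Low Drinker mice 31.2 ± 16.2 CPM. In edgeR's quasi-likelihood test with sex and sheet set in the model, High Drinker over Low Drinker gave -0.14 on the log2 scale (SE 0.17, adjusted p = 0.709). Females had 27.1 ± 12.5 CPM (n = 39) and males 27.2 ± 17.5 CPM (n = 45), with an adjusted p of 0.9998 in edgeR for males against females. Sheet set 2 exceeded set 1 in Fos by 0.91 on the log2 scale (SE 0.17, adjusted p = 0.00042 in edgeR), and this value was -0.39 (SE 0.18, adjusted p = 0.18) with animal number added to the model. Every set 2 mouse carried a higher number than every set 1 mouse, so the latter value depends on an assumed linear trend with animal number. Of Fos and the 69 tested immediate early genes together, 2 differed by line in edgeR (Jund, 0.13 lower on the log2 scale in High Drinker, and Ptgs2, 0.55 higher), 0 by sex (4 at an unadjusted p under 0.05), and 35 by sheet set. Background for these counts was 3.88%, 0.117% and 24.4% of all 17905 genes tested.

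The sides also differed in the markers of several cell types. Medium spiny neurons are the GABAergic projection neurons that make up most of the striatum, and all 20 of their markers were lower on the high-Fos side, with a median log2 fold change of -1.65. Their summed level was 1755, 4575 and 8756 CPM (lowest, median, highest) on the high-Fos side and 3456, 14213 and 23761 CPM on the low-Fos side. The sides overlapped, with 8 high-Fos libraries below every low-Fos library. Drd1 and Drd2, the dopamine receptors of the direct and the indirect pathway, fell by 1.55 and 2.02 on the log2 scale, and Ppp1r1b, which encodes the phosphatase inhibitor DARPP-32, fell by 1.86. Of 13 cortical glutamatergic markers from which activity-regulated genes had been left out, 12 were higher (median log2 fold change 1.26). With animal number as a further covariate, the median was -1.14 for the medium spiny neuron markers and 0.57 for the cortical markers. Of these 20 and 13 markers 0 passed in edgeR, beside 1.02% of all genes higher and 0.25% lower in that fit. At such shares these counts are not read as a result about the markers. Animal number did not overlap between the sides, so the values of that fit depend on an assumed linear trend with it. Slc17a7, the vesicular glutamate transporter of cortical neurons, had 1186, 1618 and 2418 CPM on the high-Fos side and 232, 605 and 1620 CPM on the low-Fos side.

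Other lists moved less evenly, and their counts stand beside 22.3% of all genes higher and 22.8% lower between the sides. Of 9 pallidal and basal forebrain markers 7 were lower and 1 higher, of 8 tested ependymal and choroid markers 7 were lower and 1 higher, and of 13 microglial markers 7 were lower. Astrocyte markers (1 of 12 lower), oligodendrocyte markers (0 of 12) and oligodendrocyte precursor markers (1 of 8 higher) moved little. On the high-Fos side Ppp1r1b was never below 79.9 CPM, while Drd2 fell as low as 1.16 CPM. Low Drinker 32 and 33 on this side had 1815 and 1755 CPM of the summed medium spiny neuron markers. Their summed cortical markers, without activity-regulated genes, were at 3835 and 3961 CPM. How much striatum each piece held was not tested. Across the 84 libraries Fos CPM had a Pearson's r of -0.699 (Spearman's rho -0.72) with a medium spiny neuron score, the mean centred log2 CPM of the 20 markers, and of 0.627 (rho 0.667) with a cortical score made the same way from the 13 markers (permutation p = 1e-05 for each, 1e-05 adjusted over the 3 relations). Within sheet set 1 these r were -0.584 and 0.499 (permutation p = 2e-05 and 0.0003), and within set 2 -0.701 and 0.664 (permutation p = 2e-05 and 6e-05). In the 6 libraries of set 3 they were -0.725 and 0.542 (permutation p = 0.11 and 0.27). Without the 2 libraries farthest from each score's median they were -0.661 and 0.661. Within the 38 mice numbered below every high-Fos mouse they were -0.345 and 0.245 (permutation p = 0.035 and 0.14), and within the other 46 they were -0.533 and 0.458 (permutation p = 0.00014 and 0.0013). Both scores also followed animal number over the 84 libraries, with a Pearson's r of -0.619 (rho -0.608) and 0.589 (rho 0.589), given as a description.

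**Figure D2:**
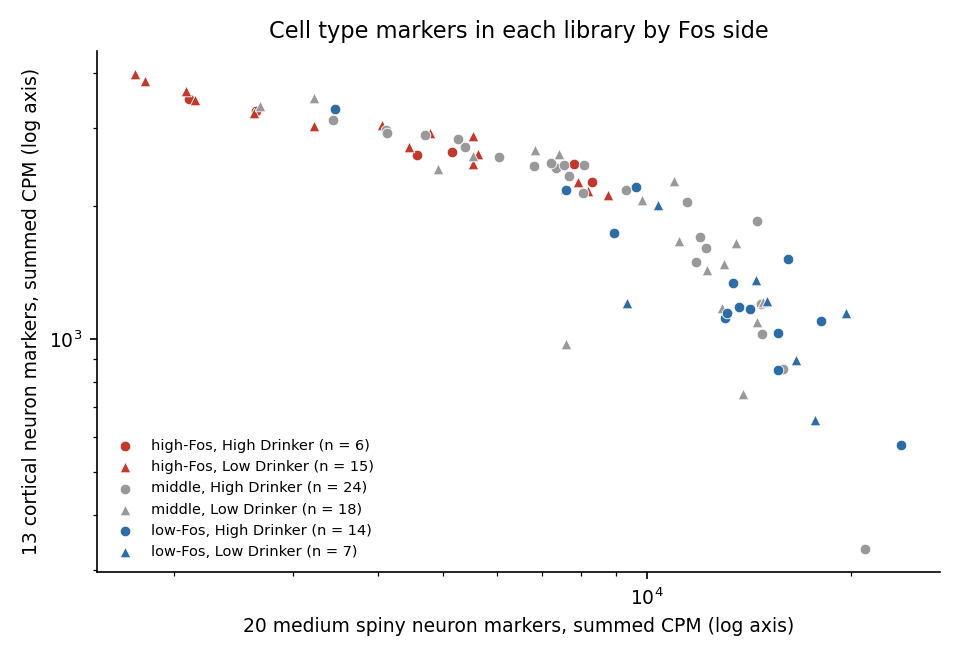
Summed CPM of 13 cortical markers (vertical, log axis) against that of 20 medium spiny neuron markers (horizontal, log axis), 1 point per library, with colour for the Fos side and shape for the line group. High-Fos libraries lie toward few medium spiny neuron and many cortical transcripts, low-Fos libraries toward the other end, and both meet in the middle.

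With line as covariate, as the comparison was set, 7410 of 16420 genes other than Fos passed an adjusted p of 0.05 in edgeR's quasi-likelihood test, 3659 higher and 3751 lower on the high-Fos side. When the 2 scores were added as covariates, 201 passed, 170 higher and 31 lower. Fos and the marker levels differ together between the sides and cannot be told apart in the line fit. Values below come from these 2 fits, the first named the line fit and the second the score fit, and where 2 values follow a gene they stand in that order. The background against which members are counted is 22.3% of genes higher and 22.8% lower in the line fit, and 1.04% higher and 0.189% lower in the score fit. The median log2 fold change of all genes was -0.01 in the line fit and 0.00 in the score fit.

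Immediate early genes were called higher with Fos in both fits. Of 69 tested members of 5 lists (AP-1 factors, EGR and SRF-linked factors, nuclear receptor and other factors, effectors, and feedback genes), 51 were higher and 4 lower in the line fit, with a median log2 fold change of 0.51. In the score fit 32 were higher and 0 lower, with a median of 0.32. Of the 21 genes in the whole table whose CPM did not overlap between the sides (0.128% of the genes tested, all of them higher on the high-Fos side), 14 were members of these lists. Libraries High Drinker 17 and Low Drinker 8, 32, 33 and 34 stood apart in an earlier look at these data. Without those of them on the sides, 49 members were higher and 4 lower in the line fit. Of all 16472 genes in that fit, 3423 were higher and 3876 lower. The members were listed with earlier results of these data known, so these shares describe them and are not a test of the lists.

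Among AP-1 factors, the group to which Fos belongs, 5 of 8 tested members were higher in the line fit and 5 in the score fit. Junb had 69.2, 85.8 and 117 CPM (lowest, median, highest) on the high-Fos side and 23.5, 37.5 and 54.4 CPM on the low-Fos side. The sides did not overlap, and the log2 fold change was 1.16 (SE 0.09, adjusted p = 1.01e-13) in the line fit and 1.36 (SE 0.12, adjusted p = 8.16e-10) in the score fit. Fosb, which also gives the long-lived ΔFosB protein, rose by 0.99 and 1.15 in the 2 fits, and Fosl2, a Fos-related antigen, by 1.03 and 1.26. Jun rose by 0.59 in the line fit and 0.34 in the score fit (adjusted p = 0.0322 in edgeR). Jund, the AP-1 member expressed at rest, had a median of 124 CPM on the high-Fos side and 120 CPM on the low-Fos side, a log2 difference of -0.00 (SE 0.06, adjusted p = 0.98). Fosl1 and Batf were too low to be tested, at a highest value of 0.156 and 0.196 CPM in any library of the sides.

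Among EGR and SRF-linked factors, 11 of 12 were higher in the line fit and 7 in the score fit. Egr1, the zinc finger factor most often used beside Fos to mark active neurons, had 334, 411 and 549 CPM on the high-Fos side and 169, 210 and 297 CPM on the low-Fos side. These did not overlap, and the log2 fold change was 1.01 (SE 0.08, adjusted p = 4.93e-13) and 0.99 with the scores (SE 0.12, adjusted p = 6.32e-07). Egr2 rose by 1.45 in the line fit and 1.88 in the score fit, and Egr4 by 0.73 and 0.90. Egr3 rose by 0.34 in the line fit alone (score fit 0.18, adjusted p = 0.751). Ier2, a short nuclear protein of the immediate early response, had 6.69, 10.2 and 21.5 CPM against 1.94, 2.91 and 5.199 CPM, again without overlap, and rose by 1.91 and 1.23. Klf10 rose by 1.28 and 0.80, while Klf6, Ier5, Klf2 and Klf4 were called in the line fit and had score-fit values of 0.04 to 0.08. Srf, the factor that many of these promoters share, was level in the line fit (-0.01, adjusted p = 0.848) and 0.19 higher in the score fit (adjusted p = 0.044).

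Among nuclear receptor and other factors, 9 of 14 were higher and 1 lower in the line fit, and 6 were higher in the score fit. Nr4a1, an orphan nuclear receptor induced in striatal neurons by dopamine signalling, had 115, 171 and 241 CPM against 36.9, 57.2 and 78.0 CPM. Every high-Fos library exceeded every low-Fos library, and the log2 fold change was 1.68 (SE 0.10, adjusted p = 8.88e-17) and 1.59 (SE 0.15, adjusted p = 1.62e-09) with the scores. Nr4a3 rose by 1.37 and 1.33, and Npas4, a factor that responds to calcium entry in neurons, by 1.31 and 1.36. Nr4a2, which deep cortical layers and the claustrum express at rest, did not pass in either fit (-0.16 and 0.55, adjusted p = 0.591 and 0.282). Csrnp1, a nuclear transcription factor, rose by 1.07 and 0.81. Per1, a clock gene whose promoter also answers to calcium and cAMP, rose by 0.52 and 0.61. Crem, Id1 and Cebpd passed in neither fit.

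**Figure D3:**
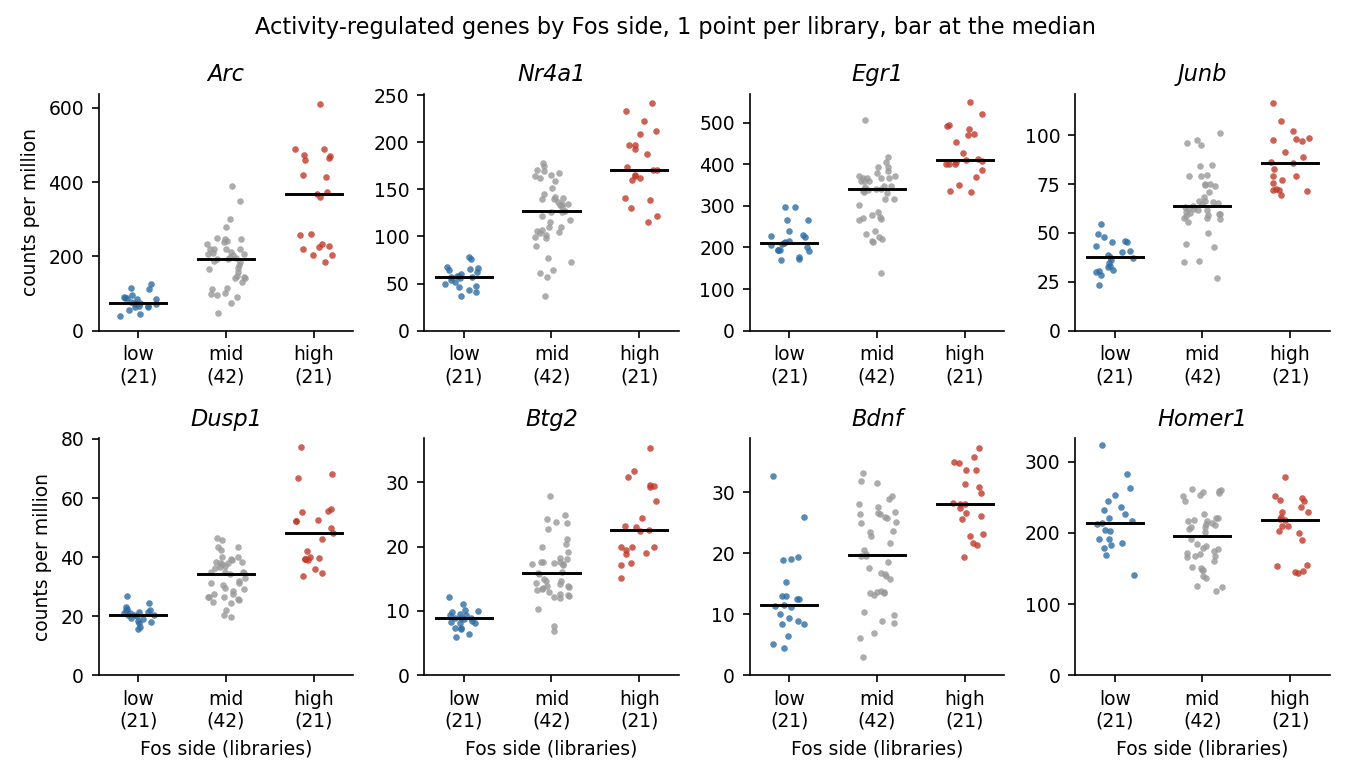
CPM of 8 genes in each library of the low-Fos side, the middle and the high-Fos side, with a black bar at the median. The values of Arc, Nr4a1, Egr1, Junb, Dusp1 and Btg2 do not overlap between the sides and the middle libraries fill the space between, Bdnf overlaps, and Homer1 is level.

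Among effectors of the synapse and of signalling, 13 of 18 were higher and 2 lower in the line fit, and 6 were higher in the score fit. Arc, which organises AMPA receptor removal at active synapses, showed the largest change of the 69 members in the line fit: 185, 368 and 610 CPM against 40.4, 74.8 and 126 CPM. The sides did not overlap, and the log2 fold change was 2.16 (SE 0.17, adjusted p = 3.46e-13) and 1.75 (SE 0.25, adjusted p = 1.19e-05) with the scores. Sik1, a kinase that restrains CREB coactivators, rose by 0.63 and 1.03, and Ccn1 (Cyr61), a matrix protein, by 1.17 and 1.16. Tiparp and Gadd45g rose by 0.29 and 0.39 in the line fit and by 0.75 and 0.71 in the score fit. Other effectors were called in the line fit alone. Nptx2, a secreted pentraxin, had values of 0.68 and 0.17 (score fit adjusted p = 0.443), Plk3 of 1.11 and 0.43 (0.0808), and Ptgs2, or cyclooxygenase 2, of 1.17 and 0.11 (0.878). Homer1, whose short form is induced by activity but whose gene count here adds all forms, was level at a median of 218 CPM on the high-Fos side and 214 CPM on the low-Fos side (-0.02, SE 0.10, adjusted p = 0.90). Rgs2 was 0.67 lower on the log2 scale in the line fit and had 0.11 in the score fit (adjusted p = 0.561).

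Genes that end the response were called as well. Of 17 feedback phosphatases, signalling inhibitors and mRNA decay factors, 13 were higher and 1 lower in the line fit, and 8 were higher in the score fit. Dusp1, the nuclear MAP kinase phosphatase, had 33.6, 48.1 and 77.2 CPM against 15.6, 20.5 and 26.8 CPM, and differed by 1.24 on the log2 scale (SE 0.09, adjusted p = 3.49e-13) and 0.998 (SE 0.14, adjusted p = 5.17e-06) with the scores. Among genes averaging at least 1 CPM with an established symbol, Dusp1 ranked with Fos most closely. Its Spearman's rho was 0.914 over the 84 libraries and 0.802 over the 42 middle ones. Clone-type names, such as those with Rik or a Gm number, were left out of that ranking. Dusp6 and Dusp5, phosphatases of ERK, rose by 1.17 and 0.80 in the line fit and by 0.69 and 0.76 in the score fit. Btg2, which promotes shortening of mRNA tails, had 15.05, 22.6 and 35.4 CPM against 5.92, 8.87 and 12.1 CPM, and rose by 1.42 (SE 0.09, adjusted p = 4.05e-15) and 1.37 (SE 0.14, adjusted p = 1.37e-08). Trib1, a pseudokinase, rose by 1.80 and 0.88, Spry4, a receptor tyrosine kinase inhibitor, by 0.91 and 0.57, and Socs3, an inhibitor of cytokine signalling, by 0.99 and 0.69. Zfp36 and Nfkbia, feedback genes of inflammatory signalling, were level at 0.07 and -0.01 in the line fit.

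The promoters of 5 of these genes are shown because they rose together and because CREB, the factor phosphorylated by calcium and cAMP signalling, binds the core TGACG. Each run holds 250 bases before and 50 after the RefSeq start on GRCm38.p6, 5′ to 3′ on the gene's strand. Capitals mark TGACG or its reverse complement CGTCA, and the full palindrome TGACGTCA where it is present. Fos lies at chr12:85473640-85473939 on the plus strand. Dusp1 lies at chr17:26508423-26508722 on the minus strand. Btg2 lies at chr1:134079106-134079405 on the minus strand. Nr4a1 lies at chr15:101266596-101266895 on the plus strand. Junb lies at chr8:84978699-84978998 on the minus strand.
Fos: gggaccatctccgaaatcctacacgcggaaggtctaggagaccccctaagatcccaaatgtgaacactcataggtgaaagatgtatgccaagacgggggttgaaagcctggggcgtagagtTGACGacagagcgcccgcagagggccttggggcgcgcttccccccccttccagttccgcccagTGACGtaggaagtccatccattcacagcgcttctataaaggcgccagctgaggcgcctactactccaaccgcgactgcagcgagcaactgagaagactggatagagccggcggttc
Dusp1: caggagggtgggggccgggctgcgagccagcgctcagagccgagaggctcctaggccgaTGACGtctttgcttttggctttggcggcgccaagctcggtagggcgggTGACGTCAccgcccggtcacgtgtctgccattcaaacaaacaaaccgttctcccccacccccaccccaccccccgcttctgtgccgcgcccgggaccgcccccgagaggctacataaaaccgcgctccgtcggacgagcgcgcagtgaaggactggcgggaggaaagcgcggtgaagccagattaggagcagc
Btg2: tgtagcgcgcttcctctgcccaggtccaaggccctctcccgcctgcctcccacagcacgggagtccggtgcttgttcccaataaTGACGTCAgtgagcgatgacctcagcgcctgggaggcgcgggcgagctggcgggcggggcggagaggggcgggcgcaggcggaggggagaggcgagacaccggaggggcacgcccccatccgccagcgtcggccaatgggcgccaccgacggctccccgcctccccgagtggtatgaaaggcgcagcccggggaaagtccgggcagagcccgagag
Nr4a1: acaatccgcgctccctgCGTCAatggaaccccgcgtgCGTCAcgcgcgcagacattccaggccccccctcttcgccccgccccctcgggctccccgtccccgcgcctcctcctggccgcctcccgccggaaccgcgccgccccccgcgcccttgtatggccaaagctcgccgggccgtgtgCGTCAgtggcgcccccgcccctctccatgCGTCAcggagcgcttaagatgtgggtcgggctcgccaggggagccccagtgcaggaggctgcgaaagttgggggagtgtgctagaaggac
Junb: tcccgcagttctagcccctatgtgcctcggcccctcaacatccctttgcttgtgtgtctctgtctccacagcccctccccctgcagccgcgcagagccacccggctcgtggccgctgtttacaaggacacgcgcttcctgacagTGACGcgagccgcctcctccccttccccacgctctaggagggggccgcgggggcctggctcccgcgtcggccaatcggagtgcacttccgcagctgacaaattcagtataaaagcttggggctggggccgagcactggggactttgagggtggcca
Dusp1 and Btg2 carried the full palindrome, which stood in 1.88% of the 27025 first-listed mouse promoters of this length. The Fos window held 2 TGACG cores, that of Nr4a1 held 4 on the opposite strand, and that of Junb held 1. RefSeq windows were matched for 21 of the 29 genes made up of Fos and the 28 genes that rose in all 4 fits described below. Genes without a window included Arc, Egr1 and Ier2. TGACG on either strand was in 17 of these 21 (81%) and in 21% of all promoters, counting also the cores inside a palindrome. The EGR-type GCGNGGGCG was in 7 of 21 (33.3%, against 5.55%), the AP-1 type TGANTCA in 1 of 21 (4.76%, against 7.93%), and the CArG box of SRF in 1 of 21 (4.76%, against 1.57%). Windows were not matched for base composition, and sites more than 250 bases before the start were not searched. A run of letters is a description, not a bound site.

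Genes of the second wave were called in both directions, as were genes at large. Of 23 delayed activity-regulated genes 8 were higher and 6 lower in the line fit (median log2 fold change 0.02), beside 22.3% and 22.8% of all genes. In the score fit 0 were called (median 0.09), beside 1.04% and 0.189% of all genes. For a list of this size these counts are not read as a result about the list. Bdnf, a neurotrophin made by cortical neurons and carried to the striatum, had 19.3, 28.1 and 37.1 CPM on the high-Fos side and 4.55, 11.6 and 32.6 CPM on the low-Fos side. Its log2 fold change was 1.24 (SE 0.18, adjusted p = 4.64e-07) in the line fit and 0.38 (SE 0.12, adjusted p = 0.112) in the score fit. Nptx1 and Nrn1 were called higher in the line fit by 1.16 and 1.27 and had score-fit values of 0.23 and -0.28. The opioid and tachykinin precursors of medium spiny neurons ran the other way in the line fit. Penk had 28.6, 316 and 780 CPM against 222, 1349 and 2022 CPM, and its value of -1.97 (adjusted p = 6.18e-06) became -0.03 in the score fit (adjusted p = 0.933). Pdyn and Tac1 had -1.33 and -1.50 in the line fit and -0.14 and 0.13 in the score fit. Penk and Tac1 are themselves among the markers averaged into the medium spiny neuron score. Their score-fit values near 0 therefore follow from the model and are not a result. The other 9 members passed in neither fit.

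Of the kinases and constitutive factors upstream of these genes, 5 of 24 were higher and 7 lower in the line fit, with a median of -0.03. These counts stand beside 22.3% of all genes higher and 22.8% lower. In the score fit 0 were called, but Ppp1r1b and Mef2c of this list are themselves score members. Creb1, the factor itself, had a median of 52.8 CPM on the high-Fos side and 52.6 CPM on the low-Fos side (0.03, SE 0.06, adjusted p = 0.71). Ppp3ca, the catalytic subunit of calcineurin, and Camk4, a nuclear calcium-dependent kinase, were 0.66 and 0.61 lower on the log2 scale in the line fit. Mapk3, which encodes an ERK kinase, was 0.28 lower on the log2 scale (adjusted p = 0.000734 in edgeR).

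**Figure D4:**
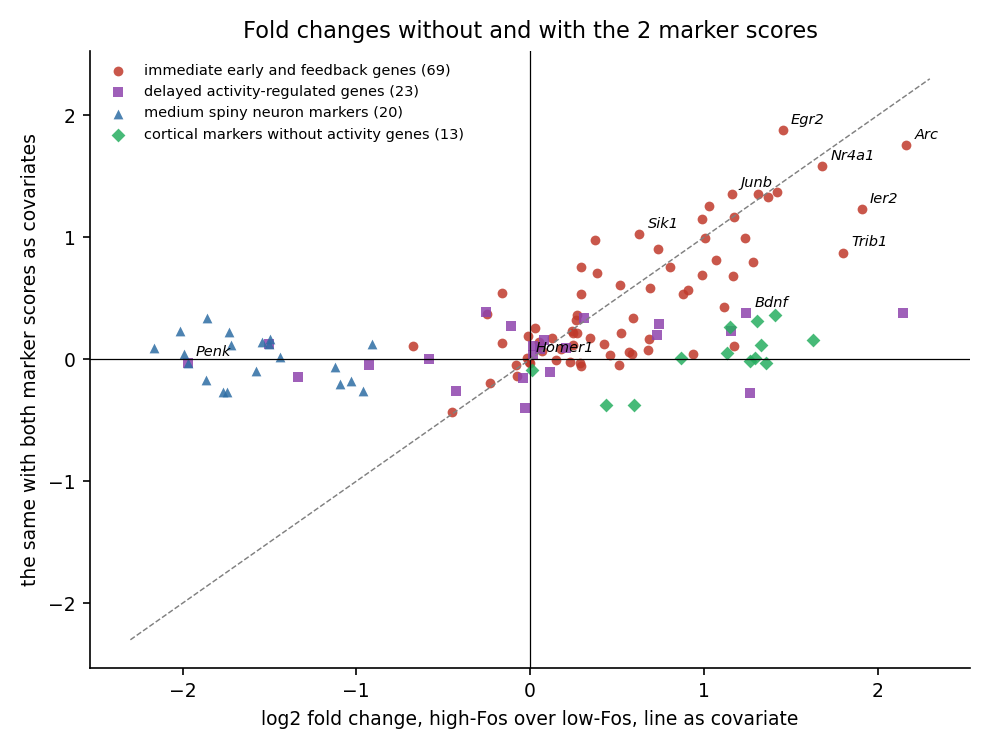
Log2 fold change of each listed gene in the score fit (vertical axis) against that in the line fit (horizontal axis), high-Fos over low-Fos, with colour and shape for the list and a dashed line where both are equal. Medium spiny neuron and cortical markers gather near 0 on the vertical axis by construction, since the scores are averages of these same markers. Delayed genes, of which Penk and Tac1 are also score members, gather near 0 as well. Many immediate early genes lie along the dashed line.

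The 42 middle libraries, which neither side holds, were fitted along the continuous Fos scale. The slope on log2 Fos CPM with line as covariate (the log2 change in a gene per log2 unit of Fos) passed for 415 of 17184 genes in edgeR, 183 with a rising slope (1.06%) and 232 with a falling slope (1.35%). Of the 69 immediate early members, 25 had a rising and 0 a falling slope, with a median of 0.22, and of the 23 delayed genes 0 passed. Of the medium spiny neuron and the cortical markers 0 passed either, with median slopes of -0.53 and 0.65. Of the 183 rising genes, 178 were also higher between the sides in the line fit (97.27% of the rising genes and 4.865% of those higher between the sides). With the 2 scores added, 37 genes rose (0.208%) and 42 fell (0.236%) of 17815, and 21 of the 37 were immediate early members. Dusp1 had a slope of 0.59 (SE 0.06, adjusted p = 1.09e-08), Nr4a1 one of 0.85 (SE 0.09, adjusted p = 5.18e-08), Btg2 one of 0.70 (SE 0.08, adjusted p = 8.52e-07) and Arc one of 1.01 (SE 0.13, adjusted p = 6.79e-06). Homer1 had a slope of -0.00 (SE 0.11, adjusted p = 0.99). The steepest falling slopes included Gal, Irs4 and Agt, genes of hypothalamic neurons and glia (-2.20, -2.01 and -2.13). They were low in most middle libraries and high in a few: Agt had a median of 3.73 CPM and a highest value of 123 CPM. These 3 were named after their values were seen.

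**Figure D5:**
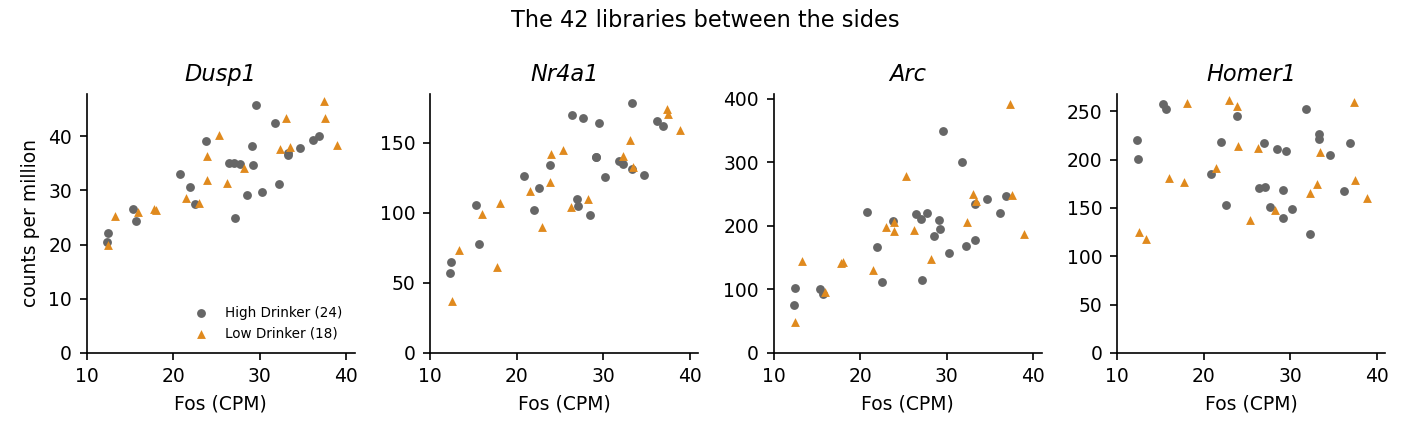
CPM of Dusp1, Nr4a1, Arc and Homer1 (vertical axes, from 0) against Fos CPM (horizontal axes) in the 42 libraries between the sides, with colour and shape for the line group. Dusp1, Nr4a1 and Arc climb with Fos in both line groups and Homer1 does not.

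In all, 28 of 16420 genes tested between the sides rose in the line fit, the score fit and both slopes of the middle libraries. The 5 immediate early lists held 69 of the 16420 genes and 19 of the 28. These 19 were Fosb, Fosl2, Junb, Egr1, Egr2, Egr4, Ier2, Klf10, Nr4a1, Csrnp1, Per1, Arc, Sik1, Ccn1, Dusp1, Dusp5, Dusp6, Btg2 and Trib1. The other 9 included Stk40, Phf13, Klhl21, Tnfrsf25, Midn, Mnt, Nfil3 and the noncoding 1700016P03Rik, named after their values were seen. Midn, a nuclear protein that delivers immediate early proteins to the proteasome, had 70.1, 83.2 and 98.0 CPM against 40.04, 49.1 and 58.3 CPM, without overlap, and rose by 0.79 and 0.59 in the 2 fits. Nfil3, a repressor of the bZIP class, rose by 0.93 and 0.65, and Mnt, a partner of Max, by 0.65 and 0.35. Phf13, Klhl21 and Tnfrsf25 are neighbours within 130.5 kb of chromosome 4 and rose by 0.43, 0.37 and 1.56 in the line fit. Opposite-strand exons of a second gene are overlapped by 6 of the 28, among them Junb (Prdx2) and Dusp1 (Ergic1), and the library kits do not mark strand, so those reads cannot be told apart.

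The host transcript 1700016P03Rik had 7.64, 10.8 and 15.1 CPM on the high-Fos side and 1.93, 3.13 and 5.60 CPM on the low-Fos side. Its log2 fold change was 1.78 (SE 0.10, adjusted p = 9.61e-18) in the line fit and 1.67 (SE 0.14, adjusted p = 2.13e-10) in the score fit, the smallest p in each. It lies at chr11:75172560-75177633 on the plus strand of the mm10 build, and its span holds the hairpins of miR-212 and miR-132, microRNAs known to be induced through CREB in neurons. Both mature 3p strands are shown from RefSeq (GRCm38.p6), with the seed, bases 2 to 8, in capitals.
mmu-miR-132-3p: uAACAGUCuacagccauggucg
mmu-miR-212-3p: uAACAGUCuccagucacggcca
The seed AACAGUC is the same in both. The counts are of the host transcript, not of either mature microRNA, and the transcript overlaps an exon of Ovca2 on the opposite strand.

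The contrast was set beside line, sex and animal number. In the High Drinker libraries alone (14 low-Fos and 6 high-Fos), 40 of the 69 immediate early members were higher and 1 lower. Of all 16770 genes in that fit, 1894 were higher and 1755 lower. In the Low Drinker libraries alone (7 and 15) 45 members were higher and 3 lower, beside 2685 and 2461 of all 16677 genes. The difference of the contrast between lines passed for 0 of 16420 genes in edgeR (437 at an unadjusted p under 0.05, of which 7 immediate early members), and that between sexes for 0 (1119 at an unadjusted p under 0.05, of which 7 members). RLE scaling in edgeR gave 0 for each as well. On simulated counts the line and sex tests recovered 50% and 56% of 1.5-fold differences, so smaller ones could be missed. When the slope on log2 Fos over all 84 libraries stood in place of the sides, it differed between lines for 1 gene and between sexes for 137 genes. The 1 gene was Pmch, a hypothalamic peptide precursor, named after its value was seen. With both scores beside the sides each count was 0, as it was for the sides without them. The differences in the slope over 84 libraries were not fitted with the scores. With animal number as a covariate in place of the scores, 22 of 69 members were higher and 0 lower, beside 167 (1.02%) and 41 (0.25%) of all genes. With the scores and animal number together, 23 were higher and 0 lower, beside 225 (1.37%) and 21 (0.128%) of all genes. Every high-Fos mouse carried a higher number than every low-Fos mouse, so both fits rest on an assumed linear trend with animal number. Their values cannot separate the sides from animal number and are given as a description. Of the 28 genes above, 21 passed with the scores and animal number together. They had been chosen by passing the score fit in these same libraries, so this count is a description. In edgeR 1700016P03Rik had 1.43 (SE 0.20, adjusted p = 3.57e-05), Junb 1.12 (SE 0.17, adjusted p = 0.000145) and Nr4a1 1.26 (SE 0.20, adjusted p = 0.00036), while Arc had 1.06 (SE 0.32, adjusted p = 0.082).

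Fos was also followed within 2 ranges of animal number, split at the lowest-numbered high-Fos mouse, so that these are the same libraries divided another way. Among the 46 mice of the upper range, the slope on log2 Fos with line and both scores passed for 17 rising genes of 17458 (0.0974%, with 0.0172% falling), of which 14 were immediate early members. Among the 38 mice of the lower range it passed for 50 rising genes of 18200 (0.275%, with 0.0385% falling), of which 23 were members. Both ranges called 13 of the 28 genes: Fosb, Fosl2, Junb, Egr1, Egr2, Ier2, Nr4a1, Sik1, Ccn1, Dusp1, Btg2, Nfil3 and 1700016P03Rik. The slope of Junb was 0.60 in the upper and 0.57 in the lower range, that of Nr4a1 0.68 and 0.68, and that of 1700016P03Rik 0.96 and 0.84. In the middle libraries with animal number as covariate, 7 genes rose (0.0398%), 5 of them members, and 2 fell (0.0114%).

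By the rule for named genes, the largest increases were those of Frmd7, Arc, Krt80, Grp, Mylk3, Clec18a, Hkdc1, Trbc2, Adra1d and Adcyap1 (log2 fold change 1.94 to 2.24), and of these Arc and Frmd7 passed in the score fit. Frmd7, a cytoskeletal protein, was low in most libraries: it had 0.273, 1.23 and 19.9 CPM on the high-Fos side and 0.175, 0.757 and 2.91 CPM on the low-Fos side. The sides overlapped, and the highest values stood far above the medians (log2 fold change 2.24, SE 0.44). The largest decreases were those of Calcr, Gbx1, Lhx8, Irs4, Gpr101, Mir6236, Lars2, Cd72, Arhgap36 and Prlr (-3.49 to -2.42), and of these Gbx1 passed in the score fit (adjusted p = 0.0478). Lhx8 and Gbx1 are factors of basal forebrain neurons. Lars2 had a highest value of 19961 CPM on the low-Fos side, in High Drinker 11, against a median of 222 CPM there and 143 CPM on the high-Fos side. Without that library the values of Lars2 and Mir6236 were -1.74 and -1.83 in place of -2.53 and -2.54 (adjusted p = 0.00626 and 0.00932 in edgeR). The ribosomal RNA gene Gm42418 had -1.79 in place of -2.63. Among the remaining low-Fos libraries the highest Lars2 value was 4255 CPM, against a median of 200 CPM. Whether Lars2 and Gm42418 share a source was not tested.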

How the data were processed

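RNA from 84 pieces of ventrolateral striatum was amplified with the Ovation RNA-Seq kit, made into TruSeq libraries and read on a HiSeq instrument, per the labels' protocols. The authors deposited 1 table of read counts for 43629 genes, made with STAR and featureCounts on mm10 per the submitters' processing notes, in which versions are not given. Totals were 22190363 to 41300401 per library (median 31697635), and rows naming no gene took 0%. Column names gave each library's animal.

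Libraries were ranked by Fos CPM (count over column total). Counts were fitted with edgeR 4.0.16 (TMM, filterByExpr, quasi-likelihood F-test, Benjamini-Hochberg over all genes tested except Fos, threshold 0.05). Alternatives were limma 3.58.1 and DESeq2 1.42.0. The line fit, the score fit, the middle slope and the differences by line and by sex were also run on simulated counts. Of 50 genes given a 1.5-fold change (per log2 unit of Fos for the slope), these recovered 80%, 78%, 88%, 50% and 56%. At 1.25-fold they recovered 58%, 26%, 58%, 6% and 10%. The other fits were not simulated. Scores are means of centred log2 CPM with a prior count of 2. Correlations used 100000 permutations in NumPy 2.4.6. The p-values measure the spread between animals.

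The sides, gene lists and tests were chosen with earlier results of these data known, and the fits with animal number were added after seeing the data. Named genes are the markers, up to 5 per list with the smallest p, the 10 largest changes per direction among genes of at least 1 CPM with 1 sign in both lines and sheet set 1, and the 10 highest Spearman correlations with Fos. The changes and correlations were ranked over genes of at least 1 CPM with an established symbol, leaving out clone-type names such as Rik. The condition on sheet set 2 could not be applied, since that set held no low-Fos library. Some genes are not reported here.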

Additional observations from a re-analysis of the deposited data

How the results depend on the processing

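The count of genes called between the sides, 7410 as reported, was 3502 with line, sex and sheet set as covariates, 201 with both cell type scores, 384 with 6 cell type scores, 208 with animal number and 246 with both scores and animal number. It was 3649 in High Drinker mice alone, 3105 in females alone and 3927 in sheet set 1 alone, where fewer libraries entered. The slopes with both scores within the upper and the lower range of animal numbers called 20 and 57 genes. The middle slope, 415 as reported, gave 176 with line, sex and sheet set, 79 with both scores, 9 with animal number and 8 with both. With the slope over all 84 libraries the line and sex differences, 0 as reported, were 1 and 137. The 2 immediate early genes that differed by line were 0 in sheet set 1 alone and 0 in set 2 alone. The 35 that differed by sheet set were 14 with both scores and 2 with animal number. The cause of these shifts was not tested.

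Some small line values changed sign: Egr1 to -0.11 without the sheet set term and -0.14 in sheet set 2 alone, and Fos to 0.0593 and Junb to 0.0327 in sheet set 1 alone. With animal number, the sheet set differences turned to -0.39 for Fos, -0.29 for Egr1, -0.52 for Arc and -0.0906 for Junb. RLE scaling, DESeq2 and limma-voom called 7459, 7579 and 7376 genes between the sides, and without High Drinker 11 edgeR called 7539. Of single-gene values under all alternatives, 123 lost the call, 1 gained it, 8 changed sign and the others did none of these. Sheet set 2 alone could not be fitted for the sides, since it held no low-Fos library. No paired analysis was possible because the replicate numbers follow accession order and pair no animals.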

Other observations

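Among clock genes, more were lower than higher on the high-Fos side. Of 16 tested members 2 were higher (Per1 and Rorb, which also marks a cortical layer) and 9 lower in the line fit, with a median log2 fold change of -0.22, beside 22.3% and 22.8% of all genes. Dbp, an output gene of the clock, had 38.9, 72.9 and 127 CPM (lowest, median, highest) on the high-Fos side and 82.0, 150 and 223 CPM on the low-Fos side, lower by a log2 value of -1.06 in the line fit (adjusted p = 8.6e-09 by edgeR). The sides overlapped, and the score fit gave -0.44 (adjusted p = 0.0769). Bhlhe41, Cry1 and Tef were 0.70, 0.56 and 0.43 lower on the log2 scale in the line fit, while Arntl and Nr1d1 had -0.06 and 0.07. In the score fit only Per1 of the 16 passed. Time of death is not given in the sources used here, so its part in these values was not tested.

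Stress-responsive lists did not move in 1 direction, and their counts stand beside 22.3% of all genes higher and 22.8% lower in the line fit. Of 16 glucocorticoid-responsive genes 4 were higher and 5 lower in the line fit, and Per1 and Errfi1, an inhibitor of the EGF receptor, were higher in the score fit. Fkbp5, a cochaperone induced by glucocorticoids, was at a median of 28.6 CPM on the high-Fos side and 47.2 CPM on the low-Fos side (log2 fold change -0.60, edgeR adjusted p = 8.59e-07), with -0.09 in the score fit. Sgk1 and Tsc22d3 passed in neither fit. Of 14 heat shock genes 5 were higher and 2 lower in the line fit, led by the inducible chaperones Hspa1b and Hspa1a (1.01 and 0.77), and 0 passed in the score fit. Of 12 hypoxia and glycolysis genes 5 were higher and 3 lower, and 0 passed in the score fit.

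Of 12 striatal interneuron markers 7 were lower and 1 higher in the line fit (median log2 fold change -0.31), and 0 passed in the score fit. Chat, the enzyme that makes acetylcholine in cholinergic interneurons, had 0.174, 4.17 and 9.91 CPM against 2.88, 20.8 and 34.1 CPM, and its value of -2.20 became -0.23 in the score fit (adjusted p = 0.584). Slc5a7 and Slc18a3, transporters of the same cells, had -1.97 and -2.24 in the line fit and -0.14 and -0.34 in the score fit. Sst and Npy, markers of another interneuron class, did not pass in the line fit (0.08 and 0.11), and Pvalb was the member that was higher (0.63). Of 14 endothelial and mural markers 4 were lower (beside 22.8% of all genes), and of 5 blood markers 0 were called.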
